A study of Homo sapiens with 5 samples.

Results

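The kallikrein-related peptidases KLK5, KLK6, KLK7, KLK8, KLK10 and KLK11 were followed across 5 established human pancreatic cell lines, HPAF1, PANC1, SU86.86, L3.6 and HPDE. The members were taken as every probe set of these 6 genes that the array annotation assigns to a single gene, which gave 9 probe sets of the 54675 on the array and 6 of the 19775 genes with such a probe set. Total RNA of each line, for which the labels give no treatment, was hybridised to 1 one-colour array, so each line is 1 sample, no culture was repeated, and no level of a line has an error of its own. The labels call all 5 pancreatic cancer lines. HPAF1, PANC1, SU86.86 and L3.6 are known as carcinoma lines and HPDE as an immortalised line of pancreatic duct epithelium, which makes HPDE a growing culture and not resting duct tissue.

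Kallikrein-related peptidases are secreted serine proteases made as inactive precursors and switched on by cleavage of a short amino-terminal stretch, often by another member of the family. Most cleave after basic residues as trypsin does, whereas KLK7 cleaves after aromatic residues as chymotrypsin does. In skin they shed the outer layer by cutting adhesion proteins between corneocytes, under the control of Kazal-type inhibitors, and in carcinomas several of them are known as secreted markers. Their genes lie side by side on the long arm of chromosome 19.

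Values are the deposited intensities, or log2 levels of the intensity plus a constant of 71.1, the 25th percentile of all values. A level filter was set at the middle of all log2 levels, equal to 140 in intensity, and genes that reached it in at least 1 line were tested. Of the 6 members, KLK5, KLK6, KLK7 and KLK8 reached it in all 5 lines on the probe set kept, KLK10 in 3 lines (HPAF1, L3.6 and HPDE) and KLK11 in 2 (HPAF1 and HPDE). The filter is not a detection call, and a gene above it need not be expressed. The leukocyte marker CD3E, for example, read between 144 and 187 and was above it in every line. Whether the readings of KLK5 and KLK7, and of KLK6 and KLK8 outside HPAF1, lie above background was not tested. Array medians lay between 137 and 143, and 9 spike-in control probe sets had a standard deviation between arrays of at most 0.144 on the log2 scale. Since no line has a spread of its own, lines less than 2-fold apart on these log2 levels are described here as not separated. The added constant narrows steps between dim readings, so the deposited intensities of such lines can lie more than 2-fold apart.

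HPAF1 was the line with high kallikrein RNA. On the probe sets kept, KLK6, KLK8, KLK10 and KLK11 were each at least 2-fold above every other line there, 4 of the 6 members, against 2.69% of the 14894 genes tested. KLK5 and KLK7 varied by less than 2-fold over the 5 lines on the probe sets kept, as did 57.6% of all genes tested. The median difference of HPAF1 from the mean of the other 4 lines was 2.21 log2 units over the 6 members and -0.0052 over all genes tested. The members were chosen with earlier results of these data known, so these shares and medians describe the list and do not test it. Over the 7 other kallikreins that reached the level filter the median difference was 0.21. Of these 7, 1 was at least 2-fold above the mean of the other lines in HPAF1, as were 6.96% of all genes. Each line was also set against the mean of the other 4 with limma, two-sided, with Benjamini-Hochberg adjustment over all genes tested and a threshold of 0.05. In HPAF1 2 members passed, KLK6 and KLK8, both higher, against 0.215% of all genes called higher. In each of PANC1, SU86.86, L3.6 and HPDE 0 members passed, and none of the 6 had an unadjusted limma p under 0.05 there. Of all genes 0.0269% passed in PANC1 and 0.0269% in HPDE, and 0% did in SU86.86 or L3.6. The p-values measure the spread between different lines, not between cultures of a line. In the fits of PANC1, SU86.86, L3.6 and HPDE, the other lines included HPAF1, whose high readings widened that spread. For KLK6 the SE was 2.13 in the PANC1 fit and 0.21 in the HPAF1 fit. KLK6, KLK8, KLK10 and KLK11 could thus hardly pass in those fits, whose lack of calls says little about these members.

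**Figure D1:**
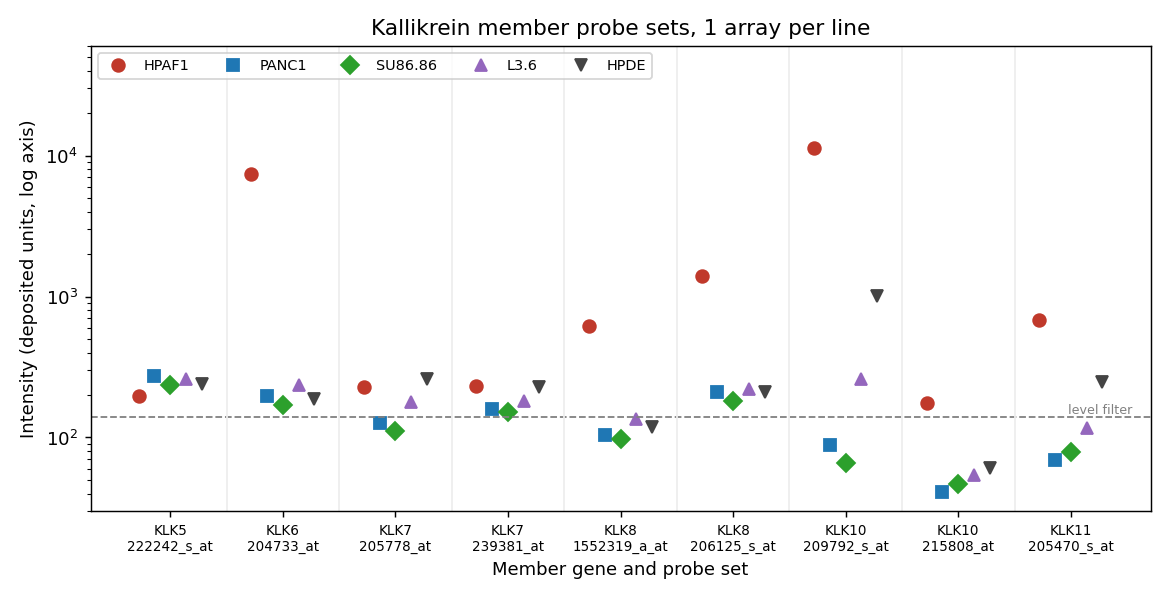
Deposited intensity (log axis) of the 9 member probe sets, 1 symbol per cell line and array, with no error bars because no line was repeated. HPAF1 stands at 7385 for KLK6 and 11306 for KLK10, above the other 4 lines, whereas the 5 lines lie between 198 and 272 for KLK5; the dashed line is the level filter.

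KLK6, a trypsin-like protease also called neurosin and abundant in brain, had an intensity of 7385 in HPAF1. It stood at 195 in PANC1, 171 in SU86.86, 237 in L3.6, against 188 in HPDE. The other 4 lines lay within 0.35 log2 units of each other and none came near HPAF1, whose intensity was 31.1 times that of L3.6 and 43.1 times that of SU86.86. On the log2 scale HPAF1 was higher than the mean of the other lines by 4.80 (SE 0.21, limma adjusted p = 0.0094). By size of difference KLK6 was 13th of the 14894 genes, and by p-value it was 8th. With any single other line left out the difference stayed between 4.75 and 4.87, but the limma adjusted p was 0.0884 without PANC1, 0.0929 without SU86.86, 0.121 without L3.6 and 0.0583 without HPDE.

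KLK8, or neuropsin, a trypsin-like protease of skin and hippocampus, was measured by a pair of probe sets that ran the same way, each named as able to match several transcripts. On the brighter one it stood at 1409 in HPAF1, 210 in PANC1, 181 in SU86.86, 220 in L3.6, against 209 in HPDE. The other one read 615 in HPAF1, 103 in PANC1, 97.1 in SU86.86, 135 in L3.6, against 119 in HPDE. HPAF1 was thus the only high line on either probe set, and the other 4 were not separated. A further probe set, annotated to KLK8 and KLK9 together and so not counted for either, was flat at 103 in HPAF1 and between 89.6 and 102 in the other lines. The difference from their mean was 2.42 on the brighter probe set (SE 0.18, limma adjusted p = 0.0355). The call was lost with no constant added before the logarithm (limma adjusted p = 0.0517) and with a stricter level filter (0.0662). It was also lost without PANC1, SU86.86, L3.6 or HPDE, with limma adjusted p-values of 0.182, 0.123, 0.195 and 0.111, while the difference stayed between 2.38 and 2.45.

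KLK10, first described as a gene of normal breast epithelium that breast carcinoma lines often lack, was graded over the lines. Its main probe set read 11306 in HPAF1, 88.6 in PANC1, 65.7 in SU86.86, 258 in L3.6, against 1013 in HPDE. HPAF1 was highest and HPDE next, 3.39 log2 units below it. L3.6 lay 1.72 below HPDE and 1.04 above PANC1, whereas PANC1 and SU86.86 were not separated and lay below the level filter. The HPAF1 intensity was 11.2 times that of HPDE and 172 times that of SU86.86. HPAF1 differed from the mean of the other 4 lines by 5.26 (SE 1.23), the sixth largest difference of all genes tested, but did not pass (limma adjusted p = 0.261). The other 4 lines themselves spanned 2.99 log2 units. Without HPDE the difference was 5.88 with an SE of 0.60 (limma adjusted p = 0.141).

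The second KLK10 probe set was dim. It read 175 in HPAF1, 41.3 in PANC1, 46.4 in SU86.86, 54.1 in L3.6, against 60.6 in HPDE. HPAF1 was again highest and HPDE next, but only HPAF1 reached the level filter and the other 4 lines were not separated. HPAF1 and HPDE, with log2 levels of 7.94 and 7.04, were not separated either on the scale with the constant added. On that scale KLK10 was not 2-fold above every other line on this probe set. In deposited intensity, however, HPAF1 was 2.88 times HPDE and between 3.23 and 4.23 times the other lines. The difference of HPAF1 from the mean of the other 4 lines was 1.02 log2 units there. Both the size of the HPAF1 step and the step between L3.6 and HPDE thus rest on the brighter probe set. Its name marks it as able to match several transcripts.

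KLK11, a trypsin-like protease also called hippostasin, followed the same order at its upper end. It stood at 680 in HPAF1, 69.2 in PANC1, 78.4 in SU86.86, 117 in L3.6, against 247 in HPDE. HPAF1 was 1.24 log2 units above HPDE, while HPDE and L3.6 were 0.76 apart and not separated. That verdict depends on the added constant, since the intensities of 247 and 117 are more than 2-fold apart. The difference of HPAF1 from the mean of the other lines was 2.0 (SE 0.51) and did not pass (limma adjusted p = 0.297). Without HPDE it was 2.25 (SE 0.26, limma adjusted p = 0.147). KLK11 has 1 probe set, likewise named as able to match several transcripts, so no other reading of it was available.

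KLK5 and KLK7 form an activation step in the epidermis, where KLK5 can cut the precursor of KLK7. KLK5 was measured by 1 probe set, also named as able to match several transcripts. It stood at 198 in HPAF1, 272 in PANC1, 237 in SU86.86, 260 in L3.6, against 239 in HPDE. It was the only member lowest in HPAF1, by 0.26 below the mean of the others (limma adjusted p = 0.748), and no pair of lines was separated. On the KLK7 probe set kept, the intensity was 230 in HPAF1, 160 in PANC1, 151 in SU86.86, 181 in L3.6, against 229 in HPDE. On the other KLK7 probe set it was 230 in HPAF1, 128 in PANC1, 112 in SU86.86, 179 in L3.6, against 260 in HPDE. HPAF1 and HPDE were the upper pair of lines on each, but the widest step on either was under 2-fold on the log2 scale used.

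**Figure D2:**
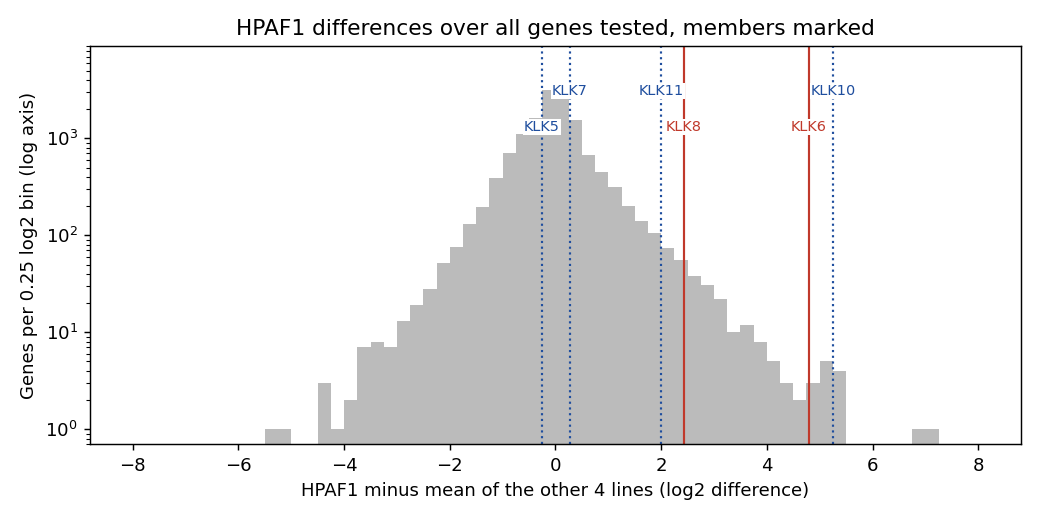
Histogram of the log2 difference of HPAF1 minus the mean of the other 4 lines for the 14894 genes tested, on a log count axis. Solid red lines mark KLK6 (4.80) and KLK8 (2.42), which passed limma, and dotted blue lines mark KLK10 (5.26), KLK11 (2.0), KLK7 (0.27) and KLK5 (-0.26), which did not.

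Set against HPDE alone, the carcinoma lines went different ways. With a single array for each line these differences were not tested, and all 4 share the HPDE array. In HPAF1 4 members were at least 2-fold higher than in HPDE and 0 lower, where 7.77% of all genes were higher and 9.27% lower. In PANC1 2 members were at least 2-fold lower and 0 higher, where 9.26% of all genes were lower and 8.47% higher. In SU86.86 2 were likewise lower and 0 higher, where 7.72% were lower and 8.44% higher. The members in each case were KLK10, at -2.76 in PANC1 and -2.99 in SU86.86, and KLK11, at -1.18 in PANC1 and -1.09 in SU86.86. In L3.6 1 member, KLK10 at -1.72, was lower than in HPDE and 0 were higher, where 8.59% of all genes were lower and 6.55% higher. KLK6 and KLK8 differed from HPDE by 4.85 and 2.40 in HPAF1, and by at most 0.25 in size in the other carcinoma lines.

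The neighbours of these genes on the chromosome were nearly flat. Of the remaining kallikreins, 8 were measured, and 23 of their 24 probe sets varied by less than 2-fold over the lines, reading between 33.4 and 365. KLK9, which lies between KLK8 and KLK10 in the RefSeq order, was not analysed here. KLK12, the next gene after KLK11, stood at 231 in HPAF1, 192 in PANC1, 179 in SU86.86, 240 in L3.6, against 192 in HPDE, and KLK4, the kallikrein before KLK5, lay between 323 in SU86.86 and 365 in L3.6. KLK1, the tissue kallikrein that releases kinins, reached 275 in HPAF1 and between 139 and 162 in the other lines, a difference of 0.65 (limma adjusted p = 0.315). KLK2, KLK13 and KLK14 lay between 115 and 211 on the probe set kept, and KLK15 stayed below the level filter in every line.

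The exception was KLK3, which encodes prostate-specific antigen. On its brightest probe set it stood at 1047 in HPAF1, 325 in PANC1, 187 in SU86.86, 290 in L3.6, against 260 in HPDE, and HPAF1 differed by 1.75 (SE 0.29, limma adjusted p = 0.151). The other KLK3 probe sets were flat, at 135 and 112 in HPAF1 and between 89.8 and 164 in the other 4 lines. The name of the bright probe set marks it as able to match several transcripts, and whether it reads KLK3 was not tested. Outside the family, the nearest measured genes on one side were ACP4 and GPR32, with ranges of 0.23 and 0.15 over the lines, and on the other SIGLEC9 and SIGLEC7, with ranges of 0.28 and 0.21. High readings in HPAF1 thus lay at the members KLK6, KLK8, KLK10 and KLK11, with the flat KLK7 between KLK6 and KLK8. Apart from the members, KLK3 read high there on its brightest probe set only.

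**Figure D3:**
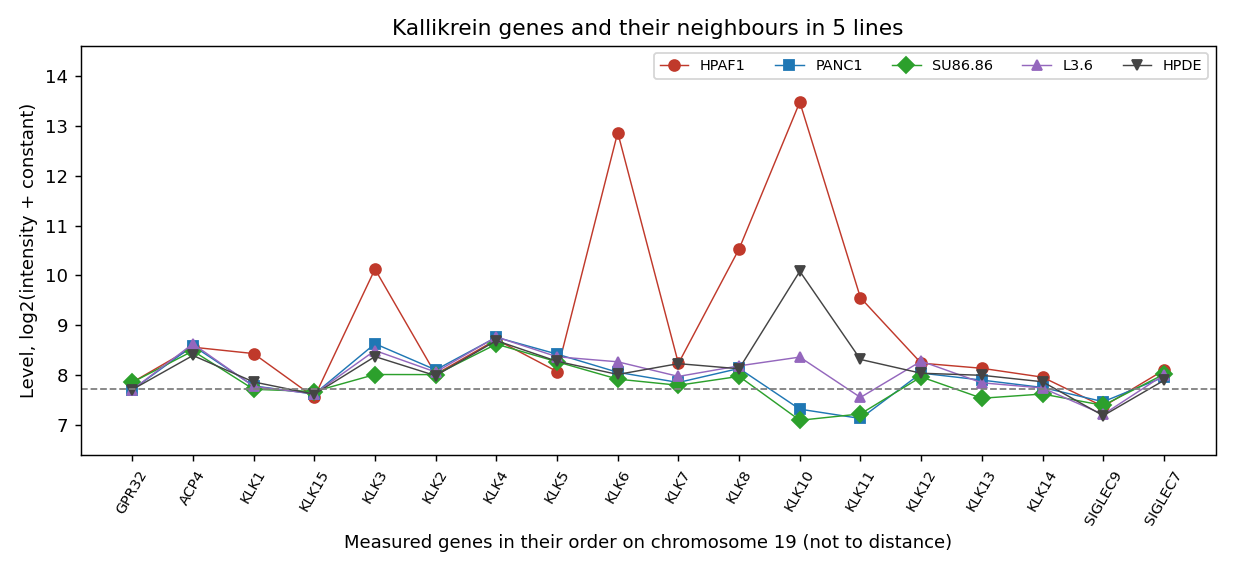
Level, as log2 of intensity plus the constant, of the measured kallikrein genes and their nearest measured neighbours, placed in their order on chromosome 19 and not by distance, with 1 line of symbols per cell line. HPAF1 lies above the other lines at KLK3 (10.13), KLK6 (12.86), KLK8 (10.53), KLK10 (13.47) and KLK11 (9.55) and within 2-fold of them at KLK5, KLK7 and KLK12; HPDE is second at KLK10 (10.08); the dashed line is the level filter.

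The start regions of the members that varied are shown because these neighbouring genes were high in the same line, with KLK5 as a flat member for comparison. The sequences are from RefSeq on the assembly GRCh38.p14, 250 bases before to 50 bases after an annotated start, 5′ to 3′ on the strand of the gene. The table held 5 of the 6 members, and KLK8 is named only. KLK10 has a second annotated start whose window overlaps the one shown. Capitals mark the GC box, GGGCGG on either strand.
KLK6, chr19:50969542-50969841, minus strand: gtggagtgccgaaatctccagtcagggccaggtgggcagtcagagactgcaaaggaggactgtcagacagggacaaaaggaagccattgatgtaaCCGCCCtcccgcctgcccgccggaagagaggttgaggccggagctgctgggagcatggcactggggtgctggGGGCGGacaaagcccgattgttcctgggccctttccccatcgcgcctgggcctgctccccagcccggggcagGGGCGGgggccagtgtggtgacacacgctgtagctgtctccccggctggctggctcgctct
KLK10, chr19:51019660-51019959, minus strand: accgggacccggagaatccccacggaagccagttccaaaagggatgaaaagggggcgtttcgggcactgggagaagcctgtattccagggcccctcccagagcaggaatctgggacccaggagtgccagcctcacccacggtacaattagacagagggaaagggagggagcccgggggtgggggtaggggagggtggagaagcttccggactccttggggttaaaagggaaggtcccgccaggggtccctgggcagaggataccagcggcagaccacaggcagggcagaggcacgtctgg
KLK11, downstream start, chr19:51026567-51026866, minus strand: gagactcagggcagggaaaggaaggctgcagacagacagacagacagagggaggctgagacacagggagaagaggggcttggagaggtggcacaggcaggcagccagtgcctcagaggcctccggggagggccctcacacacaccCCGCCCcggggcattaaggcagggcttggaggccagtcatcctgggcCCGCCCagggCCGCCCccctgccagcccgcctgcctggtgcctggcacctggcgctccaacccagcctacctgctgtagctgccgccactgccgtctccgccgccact
KLK11, upstream start, chr19:51027597-51027896, minus strand: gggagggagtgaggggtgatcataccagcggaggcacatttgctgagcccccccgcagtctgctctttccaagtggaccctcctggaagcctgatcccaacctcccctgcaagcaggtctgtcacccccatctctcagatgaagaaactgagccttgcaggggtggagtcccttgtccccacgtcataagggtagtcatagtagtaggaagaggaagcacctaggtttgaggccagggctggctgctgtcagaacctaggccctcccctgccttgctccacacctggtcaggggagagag
KLK5, chr19:50952989-50953288, minus strand: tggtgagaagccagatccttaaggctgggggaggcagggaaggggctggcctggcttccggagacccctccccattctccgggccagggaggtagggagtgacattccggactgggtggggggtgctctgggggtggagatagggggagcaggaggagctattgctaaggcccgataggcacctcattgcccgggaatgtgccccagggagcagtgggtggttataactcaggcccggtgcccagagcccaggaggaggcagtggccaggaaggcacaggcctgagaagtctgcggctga
The KLK6 window held 3 GC boxes, beginning at -155, -83 and -11 from the start, and the window of the downstream KLK11 start held 3, at -105, -58 and -48. The KLK10 windows, the upstream KLK11 window and the KLK5 window held 0. Of the 9 windows of the members, several of which overlap, 5 held a GC box, among them all 3 of the flat KLK7, against 45.0% of the 35116 RefSeq windows of this length. The AP-1 motif TGANTCA, the TATA motif TATAAA and the steroid receptor hexamer AGAACA, each sought on both strands, occurred in 0 of the 9, against 7.7%, 11.5% and 14.8% of all windows. CG dinucleotides numbered 15 in the KLK6 window, 11 in the KLK10 window shown and 7 in the KLK5 window, where the median of all windows was 14.

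Genes of the protease cascade around the kallikreins were examined next, from lists of inhibitors, activating proteases, substrates and receptors, and nuclear receptors. Of 16 listed inhibitors 14 were measured and 10 reached the level filter. Their median difference in HPAF1 was 0.22 log2 units. Of these 10, 1 passed limma in HPAF1, higher, and 0 lower, where 0.215% of all genes passed higher and 0.0269% lower. It was SERPINA5, the protein C inhibitor, a serpin that also blocks several kallikreins. It stood at 1793 in HPAF1, 122 in PANC1, 130 in SU86.86, 106 in L3.6, against 101 in HPDE, and HPAF1 was higher by 3.33 (SE 0.19, limma adjusted p = 0.0202). It was thus high in the same single line as KLK6 and KLK8, and like theirs its call was lost with any other line left out.

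Over the inhibitor list 3 genes were at least 2-fold above the mean of the other lines in HPAF1 and 0 below it, where 6.96% of all genes were above and 6.3% below. Beside SERPINA5 these were SPINK1, a Kazal-type trypsin inhibitor of the pancreas, and SERPINA1, or alpha-1-antitrypsin, neither of which passed. SPINK1 read 321 in HPAF1 and between 58.8 and 61.9 elsewhere, and HPAF1 differed by 1.57 (SE 0.17, limma adjusted p = 0.0679). SERPINA1 read 3608 in HPAF1 and between 1181 and 1371 elsewhere, and HPAF1 differed by 1.43 (SE 0.19, limma adjusted p = 0.102). Both were high in HPAF1 alone, as SERPINA5 was.

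The inhibitors that ranged most besides SERPINA5 had other patterns. SLPI, the secretory leukocyte protease inhibitor, which can block KLK7, stood at 1642 in HPAF1, 149 in PANC1, 3033 in SU86.86, 2485 in L3.6, against 8212 in HPDE. PI3, or elafin, an inhibitor of elastase, stood at 138 in HPAF1, 81.3 in PANC1, 758 in SU86.86, 80.2 in L3.6, against 1097 in HPDE. Both were highest in HPDE and lowest or near lowest in PANC1. SPINT1, a Kunitz-type inhibitor of matriptase, stood at 1828 in HPAF1, 196 in PANC1, 2017 in SU86.86, 1114 in L3.6, against 1843 in HPDE, so that PANC1 alone was low. Neither SLPI, PI3 nor SPINT1 passed in HPAF1 (limma adjusted p between 0.915 and 0.993). Unlike SPINK1, the Kazal-type inhibitors SPINK2, SPINK6 and SPINK7 stayed below the level filter in every line, and SPINK5, the main kallikrein inhibitor of skin, was not analysed here.

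Of 15 proteases of the activation cascade, all measured, 13 reached the level filter and 0 passed limma in HPAF1, with a median difference of 0.09. Against the mean of the other lines 3 were at least 2-fold higher there and 1 lower, where 6.96% of all genes were higher and 6.3% lower. TMPRSS4, a membrane-bound serine protease, stood at 9144 in HPAF1, 60.7 in PANC1, 323 in SU86.86, 215 in L3.6, against 469 in HPDE, and HPAF1 differed by 4.94 (SE 0.80, limma adjusted p = 0.149). ST14, or matriptase, an epithelial protease that can activate kallikrein precursors, stood at 3524 in HPAF1, 133 in PANC1, 3353 in SU86.86, 648 in L3.6, against 987 in HPDE. PRSS8, or prostasin, a partner of matriptase, stood at 1124 in HPAF1, 57.8 in PANC1, 367 in SU86.86, 65.0 in L3.6, against 1202 in HPDE. PANC1 was lowest for all of these, but only TMPRSS4 was high in HPAF1 alone. PLAT, the tissue plasminogen activator, ran apart from the kallikreins, at 67.6 in HPAF1, 44.8 in PANC1, 3378 in SU86.86, 1010 in L3.6, against 79.2 in HPDE.

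Of 19 listed substrates and receptors 17 were measured, 12 reached the level filter and 0 passed in HPAF1, with a median difference of 0.41. Against the mean of the other lines 3 were at least 2-fold higher there and 3 lower, where 6.96% of all genes were higher and 6.3% lower. CDH1, the epithelial cadherin, which KLK6 and KLK7 can cleave, stood at 7588 in HPAF1, 320 in PANC1, 6736 in SU86.86, 895 in L3.6, against 10281 in HPDE. DSG3, a desmosomal cadherin of stratified epithelium, stood at 545 in HPAF1, 154 in PANC1, 137 in SU86.86, 174 in L3.6, against 2857 in HPDE. For DSG3 the upper pair of lines was HPAF1 and HPDE, as for KLK10, but in the opposite order. FN1, or fibronectin, and IL1B, the interleukin 1 beta precursor, were high in SU86.86 (2353 and 2300) and HPDE (1622 and 1528) and at most 230 and 218 in the other lines. Of the corneodesmosomal targets of KLK5 and KLK7 in skin, DSG1 and DSC1 stayed below the level filter in all 5 lines, whereas CDSN, or corneodesmosin, was above it in each, between 250 in SU86.86 and 344 in L3.6 with 332 in HPAF1.

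Of 9 listed nuclear receptors 8 were measured and 7 reached the level filter, and 0 passed in HPAF1, with a median difference of 0.0078. Against the mean of the other lines 1 was at least 2-fold higher there and 0 lower, where 6.96% of all genes were higher and 6.3% lower. VDR, the vitamin D receptor, stood at 1588 in HPAF1, 102 in PANC1, 587 in SU86.86, 947 in L3.6, against 604 in HPDE, a difference of 1.65 (limma adjusted p = 0.712). RXRA, its dimer partner, stood at 660 in HPAF1 and was highest in L3.6 and HPDE, at 2220 and 2272. NR3C1, the glucocorticoid receptor, ran between 1589 in PANC1 and 3815 in L3.6 with 1929 in HPAF1, and RARG, a retinoic acid receptor, between 697 in PANC1 and 1230 in HPAF1. None of them was apart in HPAF1 by 2-fold from every other line. PGR, the progesterone receptor, was below the level filter in every line.

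**Figure D4:**
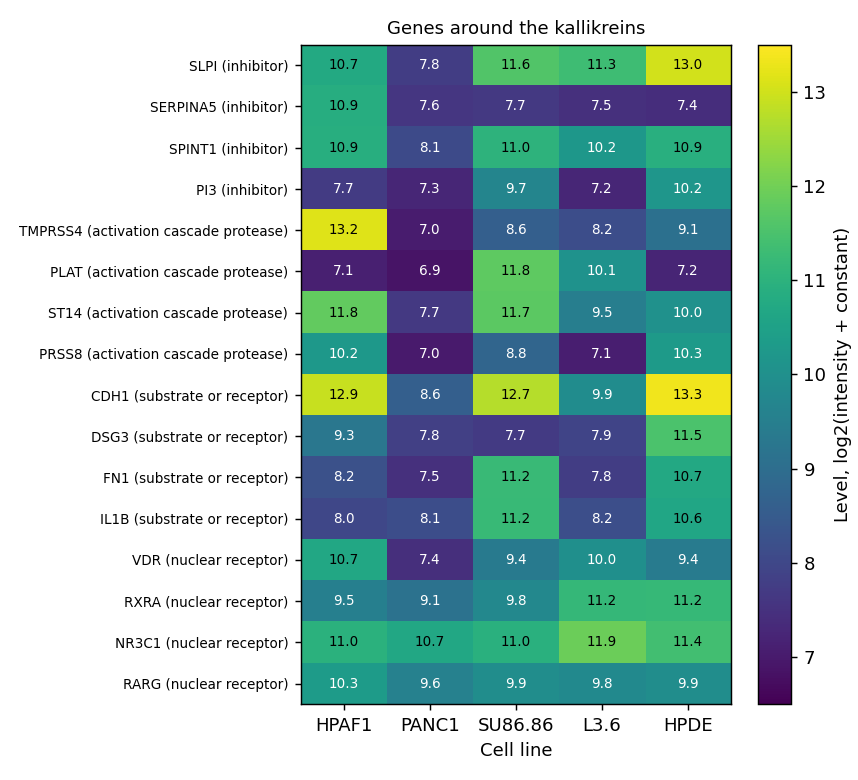
Levels, as log2 of intensity plus the constant, of 16 genes around the kallikreins in the 5 lines, 1 array each; the list of each gene is in brackets. SERPINA5 (10.86) and TMPRSS4 (13.17) are highest in HPAF1, SLPI (13.02) and CDH1 (13.34) in HPDE and PLAT (11.75) in SU86.86.

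The genes most like each member were taken by the mean over the 5 lines of the absolute log2 difference between profiles, each centred on its own mean, among 2019 genes other than the members that ranged over at least 4-fold. For KLK6 these were GCNT3, an enzyme of mucin-type glycans (0.05), the tetraspan membrane protein TM4SF4 (0.13) and the gut epithelial keratin KRT20 (0.20). For KLK8 they were the membrane lipid transporter ATP10B (0.06), HPGD, which inactivates prostaglandins (0.07), and MAOB, a monoamine oxidase (0.07). Because they were chosen by profile, each of these 6 was high in HPAF1 and lower in the other 4 lines. Lower did not mean below the level filter: HPGD had log2 levels between 8.47 and 8.54 in those lines. For KLK11 they were CCDC186 (0.11), FAM210B (0.12) and FZD5, a WNT receptor (0.12), and for KLK10 the cyclin-dependent kinase inhibitor CDKN2B (0.51), SLC16A4 of the monocarboxylate transporter family (0.61) and TMPRSS4 (0.63). CDKN2B shared the graded order of KLK10, with log2 levels of 11.48 in HPAF1, 6.53 in PANC1, 6.59 in SU86.86, 8.36 in L3.6, against 9.64 in HPDE. Between members the nearest pair was KLK5 and KLK7 (0.26), both flat, then KLK8 and KLK11 (0.33), KLK7 and KLK11 (0.61), KLK7 and KLK8 (0.69) and KLK6 and KLK8 (0.76). By this measure flat profiles lie close even where their order differs. KLK5 was lowest in HPAF1, whereas KLK7 was highest there on the probe set kept. The measure also sets apart profiles of like shape whose steps differ in size, such as KLK6 and KLK8. No gene is named as like KLK5 or KLK7, since the required range was far wider than theirs.

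The markers of the lines were set beside these values. Of the duct epithelial markers, KRT8, KRT18, KRT19, EPCAM and SOX9 were above the level filter in all 5 lines, SOX9 at 171 in HPDE. KRT7 stood at 111 in PANC1, below the filter, and between 4486 and 12541 in the other lines. CFTR, the chloride channel of duct cells, was at or below 143 in each line. Of 7 measured duct markers 4 were at least 2-fold above the mean of the others in HPAF1, where 6.96% of all genes were. Of the 7, 0 passed limma in HPAF1, where 0.215% of all genes passed higher. The part of the duct markers in the kallikrein result was not tested. Of 5 measured squamous and basal markers 1 was above the level filter in HPAF1, with a summed intensity of 676, whereas all 5 were above it in HPDE, with a sum of 44814. The measured squamous keratins, KRT14 and KRT5, were low in the line with the highest kallikrein readings. KRT14 stood at 96.3 in HPAF1, between 55.7 and 103 in PANC1, SU86.86 and L3.6, and at 12717 in HPDE. KRT5 stood at 81.8 in HPAF1, 86.2 in PANC1, 750 in SU86.86, 5370 in L3.6, against 14448 in HPDE. The marker above the filter in HPAF1 was SPRR1B. It stood at 363 there, 59.2 in PANC1, 263 in SU86.86, 74.0 in L3.6, against 6010 in HPDE. Of 4 acinar markers 0 reached the level filter in any line, and of 4 measured leukocyte markers PTPRC and ITGAM stayed below it in every line. Of the other leukocyte markers, CD3E was above it in every line, between 144 and 187. CD14, a receptor for bacterial lipopolysaccharide, read 350 in HPAF1, 56.2 in PANC1, 57.7 in SU86.86, 31.1 in L3.6, against 139 in HPDE, a difference of 1.62 (limma adjusted p = 0.310). Its upper pair of lines was HPAF1 and then HPDE, as for KLK10 and KLK11. The summed intensity of the 4 was 723 in HPAF1 and between 367 and 474 in the other lines, and their part in the kallikrein result was not tested. In RNA of whole cultures, fewer cells that express a gene and less RNA per cell cannot be told apart.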

How the data were processed

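Per the labels, biotin-labelled total RNA of 5 cell lines was hybridised to 5 arrays. The authors deposited linear intensity values for 54675 probe sets; their summarisation, scaling and background correction were not given in the sources used here, so values were taken as deposited. Of the probe sets, 41091 had 1 gene symbol, 1801 several and 11721 none listed, and 62 were controls; symbols were updated through RefSeq (GRCh38.p14). Levels are log2(intensity + 71.1), which understates the fold of dim genes. The probe set of a gene with the highest mean log2 level stood for the gene, and 14894 of 19775 genes reached the level filter. limma 3.58.1 in R 4.3.3 compared each line with the other 4 (3 residual degrees of freedom, the lone line assumed to vary as the others do), after a test on simulated data. The number of arrays limits the precision. The members and gene lists were chosen with earlier results of these data known. The text names all members and measured kallikreins. Of every other list except those of cell type markers it names up to 4 genes with the widest range and any gene that passed where a member passed. Fibroblast, endothelial and islet markers were also listed but are not named. Of these, 5 of 5, 1 of 3 and 2 of 5 measured genes reached the level filter in at least 1 line. It also names the genes nearest in profile to a member, except for KLK5 and KLK7, and the nearest genes on the chromosome. A few others, among them genes below the level filter and markers, were named after their values were seen. Alternatives changed the constant, normalization, probe sets, filter and lines.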

Additional observations from a re-analysis of the deposited data

How the results depend on the processing

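The number of members past limma in HPAF1 was 2, and it was 1 with no added constant and 1 with the stricter level filter, KLK8 being lost both times. With any other line left out in turn it was 0 to 0, and so was the count over all genes, which was 36 with all lines and 79 with no level filter. By construction a fit without a line has 1 residual degree of freedom fewer, and between 1318 and 1971 genes still had an unadjusted limma p under 0.05. Over all genes 4 passed in PANC1 and 4 in HPDE, with ranges of 0 to 8 and 0 to 4 over the alternatives. For PANC1, SU86.86, L3.6 and HPDE against the other lines, 0 members passed under every alternative run. Against HPDE, leaving out probe sets that can match several transcripts, where the gene has another, gave 1 lower member in PANC1 and 1 in SU86.86, but 0 in L3.6, and 3 higher members in HPAF1 in place of 4, since KLK10 was then read from its dim probe set. In L3.6 the count was 2 with no added constant and 0 when probe sets of a gene were averaged. KLK10 in HPAF1 differed from the other lines by 1.02 without such probe sets and by 3.14 with all its probe sets averaged, against 5.26 on the probe set kept. No member's difference in HPAF1 changed direction under any alternative run; KLK5 and KLK7 gave no value under the stricter level filter. No paired analysis was possible because each line has a single sample and the groups share only the number 1.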
